A study of Mus musculus with 44 samples.

Results

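The experiment set 4 cultures of mouse peritoneal macrophages given lipopolysaccharide (LPS, 100 ng/mL) for 24 h against 4 cultures of the same cells kept for 24 h without a stimulus. The 8 libraries are those whose columns the submitters named for LPS and for control at 24 h, of 44 libraries in the series. All cells came from C57BL/6 mice with no genetic alteration given, were drawn into the peritoneal cavity by thioglycolate, a broth that provokes an influx of leukocytes, and were taken out 4 days later. Those that had adhered after 24 h in culture were counted as macrophages and were kept in DMEM with 10% fetal bovine serum and antibiotics. Every culture derives from 1 isolate pooled from several mice, so the p-values measure the spread between cultures of that isolate and not between animals. The same stimulus and control were also sampled at 8 h (4 and 4 libraries) and at 72 h (4 and 3 libraries), and these serve below to show where the 24 h effect differed in size. Polyadenylated RNA was read in each library, and a gene's level is given in CPM, its counts relative to the library's total, after TMM scaling, a correction for library composition. Where 4 values are listed they follow replicates 1 to 4.

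LPS is the outer membrane glycolipid of Gram-negative bacteria. Cd14 and Ly96 hand it to Toll-like receptor 4 (Tlr4), whose adaptors Myd88 and Ticam1 lead to the transcription factor NF-kB and, through interferon regulatory factors, to type I interferon. Secreted interferon acts back on the cells through factors of the STAT family, which bind interferon-stimulated response elements (ISRE) in the promoters of antiviral and antigen presentation genes. In macrophages this sequence is known for early cytokine and chemokine transcripts, later interferon-stimulated transcripts, nitric oxide and itaconate synthesis, and feedback inhibitors.

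The 4 LPS libraries held 3593885 to 13729187 gene counts and the 4 control libraries 3542761 to 11523640, with replicate 1 the shallowest of both groups, so that its low values are the least precise. Some libraries stood apart from others of their group. Replicate 3 of both groups was rich in ribosomal RNA: the gene Rn18s-rs5 took 4.28% of gene counts in LPS replicate 3 and 4.69% in control replicate 3, against 0.0270% to 0.310% in the other 6 libraries. The second principal component (11.3% of the variance over the 8 libraries) set these 2 libraries apart from the rest, while the first (68.7%) divided LPS from control. Control replicate 1 held more transcript of many LPS-induced genes than the other controls. Of 428 genes called at least 8-fold higher with LPS, it had the highest control level in 194, against 76, 87 and 71 for control replicates 2 to 4. The median excess in these genes was small, at log2 0.096 over the other controls, against -0.0005 for all genes tested (0.5 CPM added). How often this library was highest over all genes tested was not counted. Values without it are given for the genes whose change moved by over 1.5 times when it was left out, and for some others.

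Of 14537 genes tested, 2705 (18.6%) rose with LPS and 2809 (19.3%) fell at an adjusted p under 0.05, 5514 (37.9%) in all. A change of at least 2-fold was called upward in 1375 (9.46%) and downward in 1440 (9.91%). Every LPS library lay above every control library in 2985 genes (20.5%) and below in 3149 (21.7%). The median log2 change of all genes tested was -0.07. Genes are described below by lists of known role, with the number of tested members that passed in each direction and the list's median beside that of all genes. Each adjusted p-value comes from the quasi-likelihood test of edgeR with Benjamini-Hochberg adjustment over the whole table of tested genes. Log2 changes are fitted values, LPS over control. The ± sign precedes an approximate standard error, the size of the change divided by the square root of the test's F statistic.

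**Figure D1:**
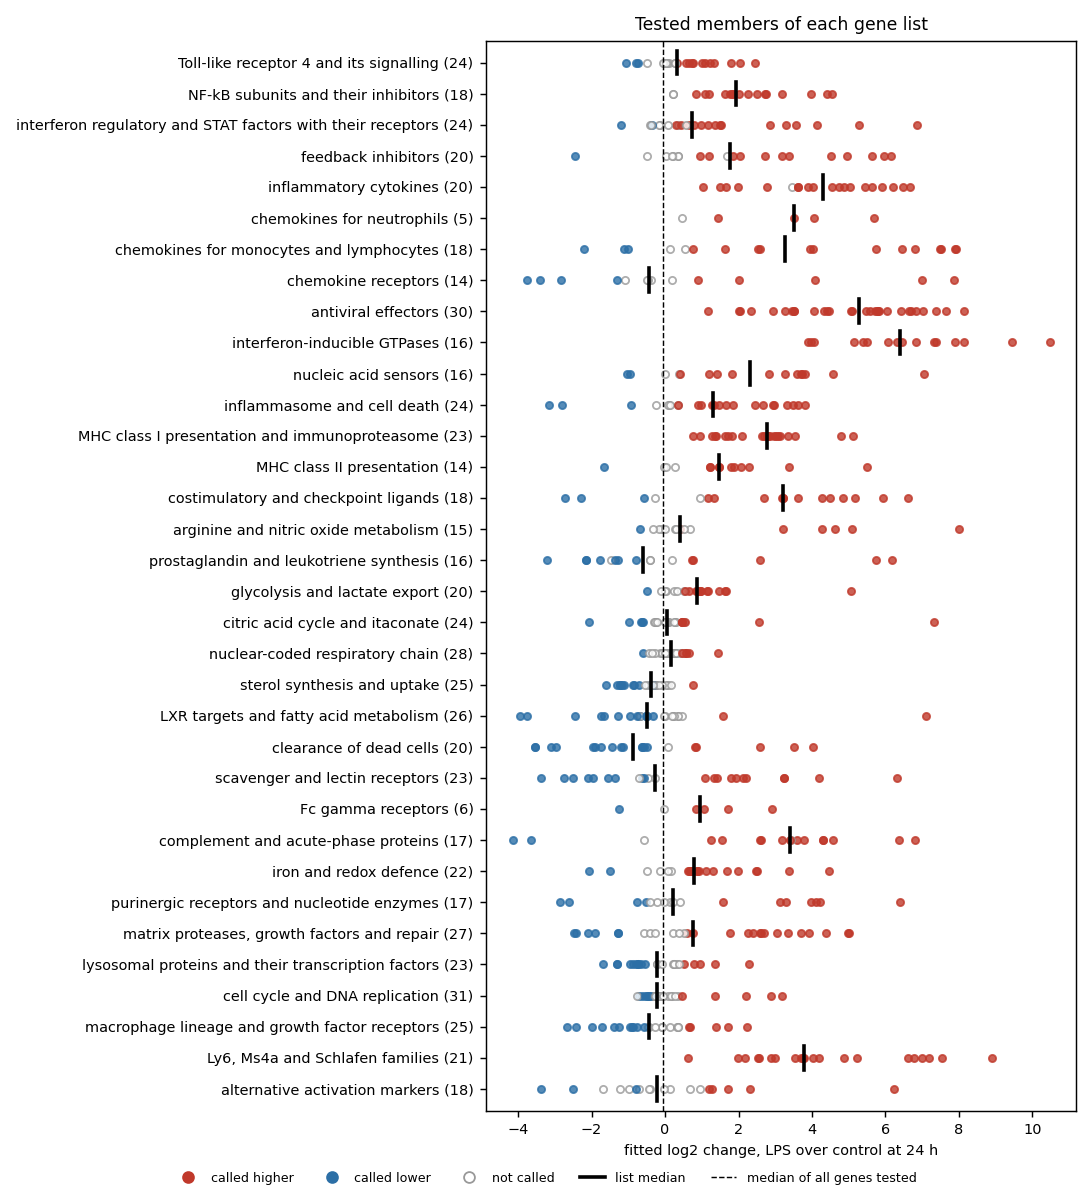
Fitted log2 change (LPS over control at 24 h, x axis) of each tested member of 34 gene lists (rows, number tested in brackets), with points in red for genes called higher, blue for genes called lower and open grey for genes not called, a black bar for the list median and a dashed line for the median of all 14537 genes. Every tested antiviral effector, interferon-inducible GTPase, MHC class I gene and Ly6, Ms4a or Schlafen gene lies to the right among the genes called higher, while most called members of the clearance, sterol, fatty acid and lysosomal lists lie to the left. The change drawn for a gene without reads in one group depends on the prior count of the fit.

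Promoter sequence is shown here for members of 2 groups that moved together, the interferon-stimulated genes and the NF-kB, cytokine and chemokine genes. An ISRE core, spelled GAAANNGAA, was searched on both strands in the 250 bases before start sites of the RefSeq promoter table (GRCm38.p6). Part of that table was left out, and 9996 of the genes tested were found in the rest. The core occurred in 7.13% of the 32851 promoters searched. For genes, a match in any promoter of the gene was counted, so those shares are of genes found and not of promoters. They were 7.87% of genes tested, 10.7% of genes called higher, 7.03% of genes called lower and 22% (63 of 286) of genes at least 8-fold higher. By the same count of genes, all 9 interferon-inducible GTPase genes found had a match in any promoter. So did 11 of 24 antiviral effector genes and 4 of 19 MHC class I genes. A gene with several start sites need not hold the core before each of them. The lines below give the gene's strand 5′ to 3′, with the matches in capitals. Matches on the other strand read TTCNNTTTC. Reads of Tgtp1 may be shared with its near-identical neighbour Tgtp2.
Irgm1, GRCm38.p6 chr11:48871424-48871462, minus strand: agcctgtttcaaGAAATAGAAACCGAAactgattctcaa
Igtp, GRCm38.p6 chr11:58199510-58199542, plus strand: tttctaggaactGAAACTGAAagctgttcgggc
Tgtp1, GRCm38.p6 chr11:48992303-48992335, minus strand: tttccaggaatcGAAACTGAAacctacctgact
Gbp2, GRCm38.p6 chr3:142620593-142620625, plus strand: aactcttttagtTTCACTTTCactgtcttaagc
Gbp3, GRCm38.p6 chr3:142559988-142560026, plus strand: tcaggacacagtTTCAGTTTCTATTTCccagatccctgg
Gbp7, GRCm38.p6 chr3:142530272-142530304, plus strand: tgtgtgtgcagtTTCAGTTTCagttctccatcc
Isg15, GRCm38.p6 chr4:156200864-156200908, minus strand: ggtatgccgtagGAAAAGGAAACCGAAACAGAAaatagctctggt
Ifit1, GRCm38.p6 chr19:34640768-34640825, plus strand: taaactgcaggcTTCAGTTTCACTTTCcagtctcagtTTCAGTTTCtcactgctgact

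An NF-kB motif, spelled GGANNTTCC, or GGAANNTCC on the other strand, was searched in the same windows and occurred in 3.59% of the promoters searched. Counted by gene as above, it occurred in 4.72% of genes tested, 6.23% of genes called higher, 4.00% of genes called lower and 10.8% (31 of 286) of genes at least 8-fold higher. It was found for 5 of 15 genes of the NF-kB list, 5 of 15 inflammatory cytokines, 3 of 5 neutrophil chemokines and 2 of 11 other chemokines. List shares count every listed gene found in the promoter table, tested or not. The cytokines with a match include Ifnb1, which did not pass the filter on low counts. Cxcl1, Cxcl2 and Cxcl3 are neighbouring paralogs on chromosome 5 and carry the same 9 letters. Nfkbia holds a further match, farther from its start site, that is not shown. A sterol regulatory element, spelled TCACNCCAC, or GTGGNGTGA on the other strand, was also searched. Counted by gene, it occurred in 1.23% of genes tested, 1.54% of genes called lower and 1 of 18 of the sterol list. A match is a description of the letters and not of a bound site, and the absence of a match says only that these letters are not in the window.
Cxcl1, GRCm38.p6 chr5:90891163-90891195, plus strand: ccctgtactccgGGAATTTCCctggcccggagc
Cxcl2, GRCm38.p6 chr5:90903791-90903823, plus strand: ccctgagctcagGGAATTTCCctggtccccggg
Cxcl3, GRCm38.p6 chr5:90786017-90786049, plus strand: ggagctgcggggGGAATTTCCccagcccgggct
Il6, GRCm38.p6 chr5:30013059-30013091, plus strand: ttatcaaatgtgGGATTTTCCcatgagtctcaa
Tnf, GRCm38.p6 chr17:35202199-35202231, minus strand: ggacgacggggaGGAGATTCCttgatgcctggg
Nfkbia, GRCm38.p6 chr12:55492656-55492688, minus strand: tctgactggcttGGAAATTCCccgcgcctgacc
Nfkbie, GRCm38.p6 chr17:45555612-45555644, plus strand: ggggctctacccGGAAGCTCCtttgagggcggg
Cxcl10, GRCm38.p6 chr5:92349027-92349059, minus strand: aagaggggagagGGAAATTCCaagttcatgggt

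The LPS receptor itself did not pass the test, while its coreceptor and the adaptor Myd88 rose. Tlr4 stood at 109, 159, 131 and 120.5 CPM with LPS, against 98.3, 113, 113 and 97.5 CPM in controls (log2 0.30 ± 0.20, adjusted p = 0.248 by edgeR), and the groups overlapped. In a fit of the 2 groups alone Tlr4 passed (log2 0.30, adjusted p = 0.0421 by edgeR). Cd14, which carries LPS to the receptor, stood at 303, 274, 211 and 264 CPM with LPS, against 43, 48.5, 49.7 and 51.4 CPM in controls, with no overlap, a 5.44-fold rise (adjusted p = 9.24e-15 by edgeR). Of 24 tested genes of the receptor and its signalling, 12 rose and 3 fell, with a median log2 change of 0.32 against -0.07 for all genes. Myd88 rose 3.50-fold. Irak3, a kinase relative that restrains the pathway, rose 4.11-fold to 84.7, 87.9, 83 and 82.7 CPM, against 18.5, 21, 19.4 and 23.1 CPM in controls. Irak4, the kinase that Myd88 recruits first, fell 1.74-fold (adjusted p = 1.5e-05 by edgeR), and the other genes that fell were the adaptor Ticam1 and the LPS-binding protein Lbp.

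NF-kB subunits and their inhibitors rose in 16 of 18 cases and fell in none (median log2 1.94). The members not called were Rel and Nfkbid. Nfkbie, an inhibitor that holds NF-kB in the cytoplasm, stood at 116, 89.9, 93.5 and 100.5 CPM with LPS, against 5.43, 4.49, 3.46 and 5.58 CPM in controls, a 21.4-fold rise (log2 4.42 ± 0.27, adjusted p = 6.72e-17 by edgeR). Traf1, a signalling adaptor of the TNF receptor family, rose 23.2-fold and Tnip3, an inhibitor that works with the deubiquitinase A20, rose 5.68-fold. The inhibitor Nfkbia, named for its promoter sequence above after its values were seen, rose 15.7-fold. For each of these 4 genes every LPS library lay above every control.

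Interferon regulatory and STAT factors with their receptors rose in 15 of 24 cases and fell in 2 (median log2 0.72). Stat2, a subunit of an interferon-activated factor, stood at 278, 293, 258 and 255 CPM with LPS, against 20.7, 25.3, 19.8 and 25.8 CPM in controls, with no overlap and an 11.8-fold rise (log2 3.56 ± 0.14, adjusted p = 4.39e-22 by edgeR). Batf2, a factor that partners Irf1, rose 39-fold. Ifngr1, the ligand-binding chain of the interferon gamma receptor, moved the other way, at 53.4, 49.2, 51.6 and 49.7 CPM with LPS, against 120.0, 115, 112 and 119 CPM in controls, a 2.29-fold fall (adjusted p = 2.16e-11 by edgeR). The other member that fell was Stat5b, and 1 fall was called without LPS replicate 3 or without control replicate 1.

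Feedback inhibitors rose in 12 of 20 cases and fell in 1 (median log2 1.77). Il1rn, the secreted antagonist of the interleukin 1 receptor, stood at 1142, 1141, 955 and 1118 CPM with LPS, against 149, 111, 106 and 116 CPM in controls, a 9.04-fold rise. Trim30a, which limits Toll-like receptor signalling in mice, rose 10.3-fold and the inhibitory receptor Pilra 49.7-fold, with no overlap between groups. The phosphatase Dusp2, which acts on MAP kinases, fell 5.52-fold to 1.40, 1.94, 2.55 and 2.27 CPM, against 11.1, 9.2, 12.4 and 14.5 CPM in controls. Il10, the anti-inflammatory cytokine, was near the limit of detection at 0, 0.232, 0.478 and 0.395 CPM with LPS, against 1.48, 0.214, 0.346 and 0.189 CPM in controls (adjusted p = 0.668 by edgeR), and its log2 change was -0.49 with all controls and 0.32 without control replicate 1.

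Inflammatory cytokines rose in 19 of 20 tested cases and none fell (median log2 4.29, or 3.96 with members without reads in controls at their lower bound). The member not called was Il23a, and Ifnb1 did not pass the filter on low counts. Tumour necrosis factor (Tnf) stood at 638, 639, 460.3 and 563 CPM with LPS, against 28.9, 6.10, 12.8 and 7.84 CPM in controls. Interleukin 6 (Il6) stood at 109, 106, 81.6 and 125 CPM with LPS, against 15.3, 0.749, 2.94 and 2.46 CPM in controls. In both, control replicate 1 was the highest control by a wide margin and still lay below every LPS library. The log2 change of Tnf was 5.44 ± 0.68 with all controls and 6.00 without control replicate 1, and that of Il6 was 4.56 ± 0.86 and 5.64. Il6 also passed without it (adjusted p = 9.80e-06 by edgeR).

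Interleukin 1 beta (Il1b), whose reads cannot be told apart from those of the antisense gene Il1bos, stood at 467, 492, 348 and 541 CPM with LPS, against 17, 2.14, 9.34 and 4.44 CPM in controls (log2 5.91, and 6.42 without control replicate 1). Il12b, the shared chain of interleukins 12 and 23, stood at 36.6, 32.3, 24 and 32.9 CPM with LPS, against 2.22, 0.214, 0.519 and 0.378 CPM in controls (log2 5.65, and 6.31 without that library). The 3 cytokines with the smallest p moved by less than 0.1 on the log2 scale without that library. Il1a rose 26.8-fold, the death ligand Tnfsf10 29.5-fold and the macrophage growth factor Csf1 4.00-fold. Csf1 stood at 60.7, 75.5, 84.6 and 72.9 CPM with LPS, against 17, 19.2, 17.7 and 19.6 CPM in controls (adjusted p = 1.43e-15 by edgeR).

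**Figure D2:**
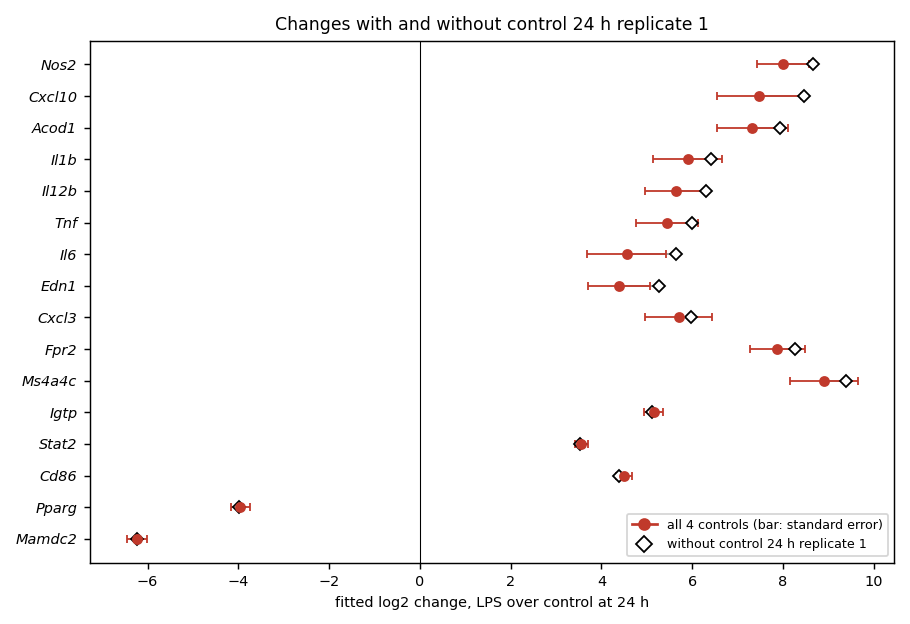
Fitted log2 change (LPS over control at 24 h, x axis) of 16 genes (rows) with all 4 controls (red, bar for the approximate standard error) and without control 24 h replicate 1 (open diamond). The genes in the upper 11 rows move to the right without that library, Il6 to 5.64 and Cxcl10 to 8.47, while Igtp, Stat2, Cd86, Pparg and Mamdc2 stay within 1 standard error.

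Chemokines that draw neutrophils rose in 4 of 5 tested cases, all but Pf4 (median log2 3.52). Cxcl1 stood at 87.3, 92.5, 70.3 and 78 CPM with LPS, against 9.88, 4.17, 9.69 and 5.39 CPM in controls, and Cxcl3 at 147, 174, 223 and 177 CPM, against 6.42, 0.856, 5.19 and 2.36 CPM. No control reached an LPS library in either gene. Cxcl1 rose 11.5-fold, Cxcl3 52-fold, Cxcl5 2.73-fold (adjusted p = 2.54e-06 by edgeR) and Cxcl2 16.8-fold.

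Chemokines for monocytes and lymphocytes rose in 13 of 18 cases and fell in 3 (median log2 3.26). Cxcl9, a ligand of Cxcr3, stood at 366, 242, 103 and 327 CPM with LPS, against 2.47, 1.93, 2.51 and 2.27 CPM in controls, a 113-fold rise. Cxcl10, another ligand of that receptor that overlaps the gene Art3, stood at 997, 984, 411 and 905 CPM with LPS, against 15.1, 2.03, 2.51 and 2.36 CPM in controls (log2 7.47, and 8.47 without control replicate 1). LPS replicate 3 was the lowest LPS library for both. Ccl7, a ligand of Ccr2, rose 53.4-fold. Ccl6, a constitutive macrophage chemokine of mice, fell 4.60-fold to 127, 108, 129 and 108 CPM, against 432, 525, 612 and 604 CPM in controls (adjusted p = 8.24e-16 by edgeR), and Cxcl12 and Cxcl14 also fell.

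Receptors for chemoattractants moved both ways, 5 up and 4 down of 14 tested (median log2 -0.42). Fpr2, which senses formylated bacterial peptides, stood at 821, 849, 539 and 826 CPM with LPS, against 6.92, 1.5, 1.99 and 3.87 CPM in controls (log2 7.88, and 8.26 without control replicate 1). Its reads may be in part those of the overlapping Fpr3. Cxcr4, the receptor of Cxcl12, fell 7.15-fold to 13.1, 18.6, 26.9 and 19.5 CPM, against 158, 130.3, 134 and 147 CPM in controls. Ccrl2, which presents chemerin and does not signal as a chemokine receptor, rose 4.04-fold.

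Antiviral effectors rose in all 30 tested cases (30 listed), with a median log2 change of 5.28 against -0.07 for all genes. Their summed level was 17783 to 20104 CPM in LPS libraries, against 864 to 1088 CPM in controls. Herc6, the main ligase that attaches Isg15 to proteins in mice, stood at 635, 805, 696 and 734 CPM with LPS, against 48.2, 41.3, 44.5 and 38.9 CPM in controls (adjusted p = 9.11e-22 by edgeR). Rtp4 rose 52.9-fold, and Oasl2, of the oligoadenylate synthetase family, rose 20.2-fold. The modifier Isg15 and Ifit1, which binds foreign RNA, rose 104-fold and 129.6-fold (log2 7.02 for Ifit1, and 7.48 without control replicate 1). Both were named for the sequences above after their values were seen.

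All 16 interferon-inducible GTPases rose (median log2 6.39, or 6.20 with Gbp10 and Gbp11 at their lower bounds), and their summed level was 11283 to 13789 CPM in LPS libraries, against 193 to 253 CPM in controls. These proteins coat and disrupt the vacuoles of intracellular microbes. Irgm1 (chr11:48861968-48871683, minus strand, GENCODE M21 on GRCm38) stood at 798, 887, 774 and 879.8 CPM with LPS, against 55.3, 49.9, 67.9 and 50.4 CPM in controls, a 14.9-fold rise (log2 3.90 ± 0.15, adjusted p = 1.13e-22 by edgeR). Igtp (chr11:58199556-58207591, plus strand), which overlaps Irgm2, stood at 493, 524, 353 and 515 CPM with LPS, against 12.3, 15.8, 12.9 and 11.8 CPM in controls. LPS and control libraries of both genes were more than 10-fold apart throughout. Gbp4 rose 237-fold, and Gbp2, Gbp3 and Gbp7, named for their promoters after their values were seen, rose 80-fold, 67.4-fold and 44.9-fold. The Gbp genes are similar in sequence and Gbp4 overlaps Gbp8 and Gbp9, so the division of reads among them is uncertain.

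Among the 8 largest rises by fitted change, taken from called genes with a mean of at least 1 CPM and groups that did not overlap, 2 were such GTPases. Of these 8 genes 5 had no read in controls, and their place among the largest rises depends on the prior count of the fit. Gbp11 (ENSMUSG00000092021, chr5:105323042-105346472, minus strand) stood at 21.5, 20, 9.96 and 23.6 CPM with LPS and had no read in controls, which makes it at least 223-fold higher against a floor of 3 counts over the 4 controls. Tgtp1 (chr11:48985327-48994172, minus strand) stood at 90.6, 89.5, 53.5 and 117 CPM with LPS, against 0.247, 0, 0.0865 and 0.189 CPM in controls (log2 9.44 ± 0.42). Olfr56 spans Tgtp1, Tgtp2 and the GTPase gene Ifi47 on the map, so its reads, 6.43, 7.36, 11.1 and 9.78 CPM with LPS and none in controls (at least 103-fold higher), cannot be assigned to it alone. The apolipoprotein L genes Apol9b and Apol9a, near-identical to each other, lacked reads in controls, which puts Apol9b at least 136-fold and Apol9a at least 72.5-fold higher with LPS. The predicted gene Gm5970, which overlaps Gm4951, was at least 131-fold higher. The others were Ms4a4c, a membrane protein of the Ms4a cluster, at 1872, 2080.4, 1779.6 and 2342 CPM with LPS, against 9.88, 1.82, 3.37 and 3.69 CPM in controls (log2 8.90, and 9.40 without control replicate 1), and the predicted gene Gm4955, at log2 8.53 and 8.96.

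Sensors of nucleic acids rose in 12 of 16 cases and fell in 2 (median log2 2.32). Ifih1, the RNA sensor MDA5, stood at 418, 527, 416 and 461 CPM with LPS, against 36.1, 35.3, 38.1 and 40.1 CPM in controls. Dhx58, its regulator LGP2, rose 13.3-fold, and Mnda, of the interferon-inducible p200 family of DNA-binding proteins, rose 24-fold. Reads of Mnda may include those of the overlapping Mndal. Tlr13, which detects bacterial ribosomal RNA in mice, fell 1.95-fold (adjusted p = 6.35e-05 by edgeR), and Tlr8 also fell, although 1 fall was called in the list when any library but LPS replicate 3 was left out.

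Genes of inflammasomes and cell death rose in 16 of 24 cases and fell in 3 (median log2 1.32). Mlkl, the effector of necroptosis, stood at 253, 272, 238 and 291 CPM with LPS, against 19.8, 18.4, 19.4 and 17.2 CPM in controls, a 14.1-fold rise (adjusted p = 1.10e-22 by edgeR). Cflar, an inhibitor of caspase 8, rose 7.87-fold. Bcl2l11, which encodes the death-promoting protein BIM, fell 8.87-fold to 7.83, 6.97, 4.78 and 6.42 CPM, against 68.4, 62.2, 46.3 and 49.5 CPM in controls. The groups did not overlap in any of the 3. Gsdme and Nlrp1b were the other members that fell.

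MHC class I presentation and the immunoproteasome rose in all 23 tested cases (median log2 2.76). The nonclassical class I genes H2-Q6 and H2-Q7 share most of their sequence. H2-Q6 stood at 756, 735, 620.0 and 657 CPM with LPS, against 19.5, 19.6, 19.7 and 20.3 CPM in controls, and H2-Q7 rose 27.5-fold. H2-Q4 rose 7.88-fold. The 23 genes summed to 32501 to 36128 CPM in LPS libraries, against 10971 to 12014 CPM in controls.

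MHC class II presentation, which serves helper T cells, rose in 10 of 14 cases and fell in 1 (median log2 1.47). Ciita, the transactivator of class II genes, stood at 51.5, 33.1, 28.8 and 28 CPM with LPS, against 2.47, 4.07, 3.20 and 3.40 CPM in controls, a 10.3-fold rise (adjusted p = 1.46e-11 by edgeR). H2-Ab1, a class II beta chain, stood at 806, 565, 526 and 676 CPM with LPS, against 122, 133, 137 and 132 CPM in controls. H2-DMb1, part of the peptide exchange factor, rose 4.23-fold. Lgmn, a lysosomal protease that cuts antigens, fell 3.16-fold. The list's summed level overlapped between groups, at 14860.0 to 16563 CPM with LPS, against 13365 to 16040.0 CPM in controls.

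Costimulatory and checkpoint ligands rose in 13 of 18 cases and fell in 3 (median log2 3.21). Cd86, a ligand of Cd28 on T cells, stood at 262, 320.0, 275 and 326 CPM with LPS, against 8.64, 15.6, 16 and 11 CPM in controls (log2 4.50 ± 0.18, adjusted p = 4.39e-22 by edgeR). Slamf1 stood at 19.6, 19.1, 45.6 and 20.9 CPM with LPS, against 0.247, 0.428, 0.0865 and 0.284 CPM in controls, with LPS replicate 3 more than 2-fold above the other LPS libraries. Its log2 change was 6.63, and 5.89 without the rRNA-rich libraries. Vsir, the checkpoint ligand VISTA, fell 6.63-fold to 70.2, 57, 66 and 54.9 CPM, against 453, 443, 365 and 379.7 CPM in controls. It lies within the span of Cdh23. Cd83 and Havcr2 fell too.

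**Figure D3:**
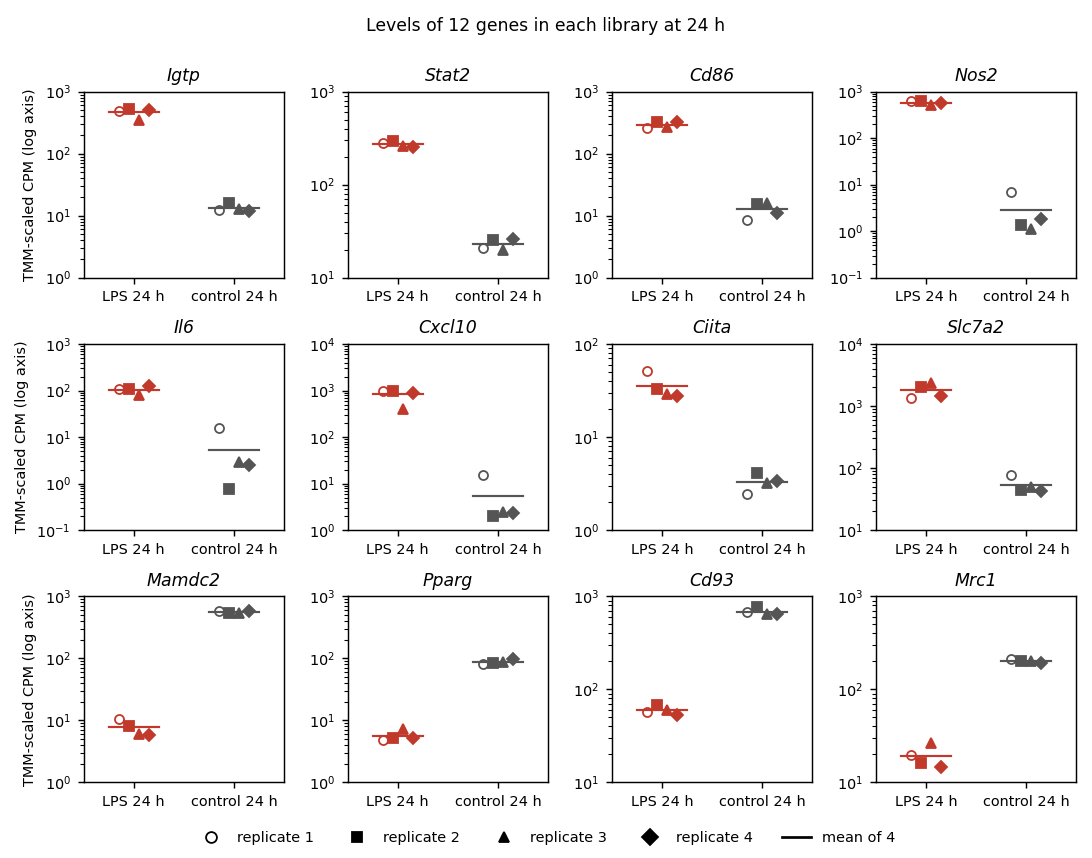
TMM-scaled CPM (log axis) of 12 genes in each of the 4 LPS 24 h libraries (red, left) and the 4 control 24 h libraries (grey, right), with a symbol for each replicate and a line for the mean of 4. LPS and control libraries are apart in all 12 genes, upward for 8 and downward for Mamdc2, Pparg, Cd93 and Mrc1, and the open circle of control replicate 1 lies above the other controls for Nos2, Il6, Cxcl10 and Slc7a2.

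Arginine and nitric oxide metabolism rose in 6 of 15 tested cases and fell in 1 (median log2 0.41). Nos2, the inducible nitric oxide synthase (chr11:78920787-78960254, plus strand), stood at 646, 621, 518 and 558 CPM with LPS, against 6.92, 1.39, 1.12 and 1.80 CPM in controls (log2 8.00 ± 0.56, adjusted p = 3.36e-15 by edgeR, and 8.66 without control replicate 1). Slc7a2, the importer of its substrate arginine, stood at 1359, 2004, 2377 and 1465 CPM with LPS, against 78.3, 43.7, 49.5 and 43 CPM in controls. Gch1, which starts synthesis of the cofactor tetrahydrobiopterin, rose 9.32-fold. Qdpr, which regenerates that cofactor, fell 1.62-fold, and 2 falls were called in the list without LPS replicate 3, without control replicate 2 or with the replicate number as a block. Arg1, the arginase that competes for the same substrate, stood at 22.7, 21.8, 65.1 and 25.1 CPM with LPS, against 23.5, 12.4, 36.1 and 12.9 CPM in controls, with overlap, and did not pass (adjusted p = 0.0857 by edgeR). Replicate 3 was the highest library of each group for Arg1. Its adjusted p was 0.00710 without control replicate 3, 0.0494 without LPS replicate 1, 0.0406 without LPS replicate 2 and 0.00886 with no filter on low counts. The log2 change was 0.68 with all libraries, 1.10 without control replicate 3 and only 0.17 without LPS replicate 3.

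Prostaglandin and leukotriene synthesis split, with 5 members up and 7 down of 16 tested (median log2 -0.60). Ptges, the inducible prostaglandin E synthase, stood at 389, 384, 229 and 329.7 CPM with LPS, against 7.41, 6.21, 6.05 and 5.39 CPM in controls, and Pla2g4a, the phospholipase that releases arachidonic acid, rose 5.97-fold. Hpgds, the prostaglandin D synthase, fell 9.26-fold to 18.5, 23.9, 18.9 and 23.8 CPM, against 161, 206, 204 and 221 CPM in controls (adjusted p = 7.95e-18 by edgeR). No library of one group reached the other in these 3 genes.

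Glycolysis and lactate export rose in 13 of 20 cases and fell in 1 (median log2 0.86). Hk2, an inducible hexokinase, stood at 167, 162, 157 and 161 CPM with LPS, against 55.6, 55.2, 45.4 and 48.3 CPM in controls, a 3.17-fold rise. Hif1a, a factor that drives glycolytic genes, rose 3.08-fold and the transporter Slc2a6 33.7-fold. The fall of Pdk1, which restrains pyruvate oxidation, was 1.41-fold (adjusted p = 0.0374 by edgeR) and did not pass without LPS replicate 2, 3 or 4, without control replicate 1, 2 or 3 (adjusted p = 0.0677 to 0.0945 by edgeR), or without the rRNA-rich libraries (0.181).

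In the citric acid cycle and itaconate list 6 of 24 rose and 5 fell (median log2 0.05), near the shares of all genes (18.6% and 19.3%). Acod1, which makes itaconate from a cycle intermediate, stood at 2738, 2629, 3040.1 and 2818 CPM with LPS, against 38.3, 7.28, 16.3 and 10.6 CPM in controls (log2 7.33 ± 0.79, and 7.94 without control replicate 1). The cytosolic dehydrogenase Idh1 fell 4.23-fold to 76.9, 79.4, 80 and 78.2 CPM, against 361, 319, 342 and 309 CPM in controls, and Ogdh, a subunit of the 2-oxoglutarate dehydrogenase, fell 1.97-fold. Nuclear-coded respiratory chain genes had 6 rises and 1 fall among 28 tested (median log2 0.18), which is below the background share of 37.9% called. Cytochrome c (Cycs) rose 2.72-fold, Cyc1 1.57-fold and Uqcrc2 1.42-fold. Ndufa4 fell 1.51-fold (adjusted p = 0.0362 by edgeR) and did not pass without LPS replicate 1, 2 or 3, without control replicate 3 or 4 (adjusted p = 0.0576 to 0.138 by edgeR), or without the rRNA-rich libraries (0.224), while 2 falls were called with the replicate number as a block.

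Sterol synthesis and uptake fell in 11 of 25 tested cases and rose in 1 (median log2 -0.37). Sc5d, a desaturase late in the pathway, stood at 33.8, 38.1, 35.1 and 33.6 CPM with LPS, against 82, 87.3, 90 and 90.7 CPM in controls. Sqle, the epoxidase of squalene, and Dhcr7, a late reductase, fell 2.36-fold and 2.35-fold. The groups did not overlap for Sc5d.

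LXR targets and fatty acid metabolism fell in 14 of 26 cases and rose in 2 (Ch25h and Abca1) (median log2 -0.50). Pparg, a nuclear receptor of lipid handling, stood at 4.75, 5.27, 7.17 and 5.14 CPM with LPS, against 82.2, 83.7, 88.8 and 99.3 CPM in controls, a 15.5-fold fall (log2 -3.96 ± 0.21, adjusted p = 4.04e-19 by edgeR). Fabp4, its target and a fatty acid carrier, stood at 70.5, 56.1, 71.6 and 73.5 CPM with LPS, against 880.3, 652, 1076 and 1097 CPM in controls. The lipid droplet protein Plin2 fell 3.38-fold. Ch25h, which makes 25-hydroxycholesterol, stood at 44.5, 44.3, 37.6 and 50.4 CPM with LPS, against 0, 0.107, 0.605 and 0.284 CPM in controls (log2 7.11, and 7.95 without control replicate 3). The number of members that rose was 6 without LPS replicate 3 and 5 with the replicate number as a block. The summed level of the list was 6536 to 6761 CPM in LPS libraries, against 13100.0 to 14595 CPM in controls.

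Clearance of dead cells was the list with the lowest median of the 34 (log2 -0.88), with 14 of 20 tested members down and 5 up. Cd93, a lectin-like surface protein linked to uptake of dying cells, stood at 57.3, 67.8, 60.3 and 52.8 CPM with LPS, against 682, 779, 649 and 642 CPM in controls (log2 -3.53 ± 0.20, adjusted p = 3.64e-18 by edgeR). Itgb3, the beta chain of an integrin that binds bridging molecules, fell 11.7-fold. Axl, a receptor for phosphatidylserine through Gas6, moved the other way, at 509, 534, 374 and 432 CPM with LPS, against 47.2, 42.5, 40 and 33.8 CPM in controls, an 11.3-fold rise. The other members that rose were Timd4, Scarf1, Mertk and Stab1.

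Scavenger and lectin receptors moved both ways, 11 up and 9 down of 23 tested (median log2 -0.28). The list's summed level was higher with LPS, at 14015 to 16193 CPM, against 7562 to 9255 CPM in controls. Msr1, a class A scavenger receptor, rose 3.46-fold. Cd36, which takes up oxidized lipoprotein and fatty acids, fell 3.91-fold to 785, 915, 1071 and 875 CPM, against 3399, 3392, 3869 and 3604 CPM in controls. The mannose receptor Mrc1 stood at 19.6, 16.3, 26.7 and 14.6 CPM with LPS, against 210.2, 204, 199.9 and 194 CPM in controls. Neither fall left any overlap between groups. Among Fc gamma receptors 4 of 6 rose and 1 fell (median log2 0.95). Fcgr1, the high-affinity receptor, rose 7.51-fold, Fcgr4 3.28-fold and the inhibitory Fcgr2b 1.81-fold, while Fcgrt, which recycles immunoglobulin G, fell 2.40-fold.

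Complement and acute-phase proteins rose in 13 of 17 cases and fell in 2 (median log2 3.39, or 3.19 with members without reads in controls at their bound). C1ra, a protease of the classical pathway, stood at 61.5, 58.9, 41.7 and 57.2 CPM with LPS, against 2.96, 2.78, 3.03 and 2.27 CPM in controls. Slpi, a protease inhibitor, rose 10.5-fold. Iron and redox defence rose in 16 of 22 cases and fell in 2 (median log2 0.80). Mitochondrial Sod2 stood at 1885, 1949, 1612 and 2102 CPM with LPS, against 102, 71, 83.1 and 88.9 CPM in controls, and the cystine importer Slc7a11 and the peroxiredoxin Prdx1 rose 10.3-fold and 5.63-fold. Gpx1, a glutathione peroxidase, fell 2.83-fold, and the other fall was Slc40a1, the iron exporter.

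Purinergic receptors and nucleotide enzymes included 7 rises and 4 falls among 17 tested (median log2 0.22). Adora2b, an adenosine receptor, stood at 24.1, 26.2, 23.1 and 25.7 CPM with LPS, against 2.72, 2.25, 2.77 and 3.40 CPM in controls, and Pde4b, which degrades cyclic AMP, rose 15.8-fold. Adenosine deaminase (Ada), which removes adenosine, fell 7.2-fold to 9.23, 6.04, 5.89 and 6.23 CPM, against 43.5, 50.8, 49 and 46 CPM in controls (adjusted p = 5.17e-17 by edgeR). The separation was complete for all 3.

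Matrix proteases, growth factors and repair genes rose in 15 of 27 cases and fell in 6 (median log2 0.76). Serpinb2, which inhibits plasminogen activators and is abundant in activated macrophages, stood at 469, 656, 546 and 597 CPM with LPS, against 20.5, 13.3, 18.9 and 17.7 CPM in controls, with no overlap (log2 5.02 ± 0.23, adjusted p = 7.62e-21 by edgeR). Coagulation factor F10 rose 8.20-fold. Mmp12, macrophage elastase, fell 4.27-fold to 852, 1047, 1478 and 974 CPM, against 4619, 4373, 4819 and 4761 CPM in controls. Markers of mesothelial cells and fibroblasts, which also express matrix genes, were lower with LPS in 10 of 15 tested cases, and their part in this list's changes was not tested. Fewer cells of a type and less RNA per cell cannot be told apart in bulk samples.

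Lysosomal proteins and their transcription factors fell in 10 of 23 cases and rose in 5 (median log2 -0.21). Cathepsin D (Ctsd) stood at 5803, 4879, 4642 and 4896 CPM with LPS, against 16137, 18221, 15213 and 15475 CPM in controls, and beta-glucuronidase (Gusb) fell 2.48-fold. Cathepsin C (Ctsc), which activates serine proteases, rose 4.88-fold. The summed level was 32129 to 34772 CPM in LPS libraries, against 48952 to 53855 CPM in controls, with no overlap.

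Cell cycle and DNA replication genes had 5 rises and 7 falls among 31 tested, a share called close to the 37.9% of all genes (median log2 -0.21). The rises were led by cyclins of the G1 phase and an inhibitor. Ccne1 stood at 31.3, 35.6, 35 and 35.5 CPM with LPS, against 5.68, 4.07, 4.50 and 4.63 CPM in controls, Ccnd2 rose 9.03-fold and the cyclin-dependent kinase inhibitor Cdkn1a 4.62-fold. Cdk4, the kinase partner of D cyclins, fell 1.63-fold (adjusted p = 5.36e-05 by edgeR). The number of falls was 4 without LPS replicate 3, 4 without control replicate 2 and 3 without the rRNA-rich libraries.

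Macrophage lineage and growth factor receptor genes fell in 11 of 25 tested cases and rose in 5 (median log2 -0.45). The tetraspanin Cd9 fell 3.94-fold to 248, 270.2, 343 and 301 CPM, against 1090.5, 949, 1202 and 1338 CPM in controls (adjusted p = 3.22e-12 by edgeR). Adgre1, which encodes the macrophage marker F4/80, moved the other way, at 826, 1042, 787 and 802 CPM with LPS, against 171, 206, 175 and 179.6 CPM in controls. All 10 macrophage markers passed the filter on low counts, and 5 of them rose and 3 fell (log2 -2.67 to 2.91). They summed to 8343 to 9345 CPM with LPS, against 9205 to 14714 CPM in controls.

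Members of the Ly6, Ms4a and Schlafen families rose in all 21 tested cases (median log2 3.78). Ms4a6d stood at 2356, 2929.9, 2427 and 2689 CPM with LPS, against 158, 194, 205 and 198 CPM in controls (adjusted p = 1.63e-23 by edgeR). Ms4a6b rose 16.3-fold and Slfn8, of a family that restrains proliferation and translation, 11.7-fold. These families hold close paralogs, so reads may be divided between them. Markers of alternative activation, the state that interleukin 4 induces, rose in 5 of 18 tested cases and fell in 3 (median log2 -0.22). These shares are near those of all genes, of which 18.6% rose and 19.3% fell. Transglutaminase Tgm2 rose 5.0-fold and the receptor chain Il4ra 2.42-fold, and the falls were Mrc1, Clec10a and Egr2. Falls numbered 5 without LPS replicate 3.

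The 8 largest falls by fitted change, taken by the same criteria, were in genes that none of the lists holds. Mamdc2, which encodes a MAM domain protein (ENSMUSG00000033207, chr19:23302609-23448442, minus strand), stood at 10.6, 8.13, 6.13 and 5.93 CPM with LPS, against 579, 546, 549 and 576 CPM in controls (log2 -6.24 ± 0.23, adjusted p = 2.51e-23 by edgeR). Cmbl, a hydrolase, stood at 0.280, 0.310, 0.637 and 0.0988 CPM, against 14.6, 15.3, 19.4 and 18.3 CPM, and Slc9a9, a sodium-proton exchanger of endosomes, at 0.280, 0.310, 0.478 and 0.395 CPM, against 14.3, 13.4, 12 and 14.3 CPM. All LPS values lay far below all control values in these 3 genes, and the log2 change of Cmbl was -5.53, and -6.13 without LPS replicate 3. Bex1 fell 36.1-fold and Tnni2, a troponin subunit, 32.7-fold. For 3 genes the LPS group held so few counts that the ratio LPS over control is given with its exact 95% counting interval: Gpm6a (1 count with LPS) 0.00946 (0.000237 to 0.0540), Scrn1 (2 counts) 0.0204 (0.00243 to 0.0759), and Nat8l (3 counts) 0.0336 (0.00679 to 0.102). The fitted log2 change of these 3 depends on the prior count and on single libraries: it was -6.13 for Gpm6a and -7.67 without LPS replicate 2, -5.33 for Scrn1 and -7.59 without LPS replicate 3, and -4.81 for Nat8l and -5.56 without LPS replicate 3. Such intervals and floors cover counting error only.

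Markers of other cell types were low beside those of macrophages. Mesothelial and fibroblast markers, cells that line and support the peritoneal cavity, fell in 10 of 15 tested cases and rose in 1 (Dcn), although their sum overlapped, at 237 to 289 CPM with LPS, against 244 to 293 CPM in controls. Neutrophil markers passed the filter in 5 of 11 cases, of which Camp and S100a8 rose, summed to 68 to 77.7 CPM with LPS, against 31.9 to 49.9 CPM in controls, and Elane and Ngp were at 0 in all 8 libraries. T and NK cell markers rose in 3 of 9 tested cases at sums of 10.8 to 14.8 CPM, against 4.92 to 6.67 CPM. B cell markers had no call among 7 by edgeR, with 0 by DESeq2 and 1 at an unadjusted p under 0.05, mast cell and eosinophil markers fell in 2 of 7, and dendritic cell markers rose in 1 (Ccr7) and fell in 1 (Clec9a) of 7. Of all genes tested 18.6% rose and 19.3% fell. The few calls among neutrophil, lymphocyte, mast cell, eosinophil and dendritic cell markers are not read as changes of those cells. The part of any of these cell types, mesothelial cells and fibroblasts included, in the changes above was not tested.

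The effect of LPS at 24 h was then set against its effect at 8 h and at 72 h, each difference tested in the same model. Against 8 h, the log2 effect was higher at 24 h in 1285 genes (8.84%) and lower in 1203 (8.28%). Against 72 h it was higher in 751 (5.17%) and lower in 795 (5.47%). The counts against 72 h rest on few libraries: the higher calls were 1155 without LPS 72 h replicate 1, and the lower calls were 467 without LPS 72 h replicate 2, 514 without control 72 h replicate 3 and 299 without the rRNA-rich libraries. Both differences use the same 24 h libraries and so are not independent of each other.

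Most nucleic acid sensors, and every NF-kB gene and cytokine whose effect differed in the test, had a lower effect at 24 h than at 8 h. The effect on sensors was lower at 24 h than at 8 h in 12 of 16, higher in 2, and higher than at 72 h in 8 (5 without control 72 h replicate 1), with median log2 effects of 3.70, 2.32 and 1.54 at 8, 24 and 72 h. Leaving out 1 library in turn put the sensors lower than at 8 h at 8 to 13, and leaving out the rRNA-rich libraries at 6. NF-kB genes were lower at 24 h than at 8 h in 7 of 18, and cytokines in 5 of 20, and each of these counts was 3 without the rRNA-rich libraries. The cytokine count was 13 without control 8 h replicate 1 and 3 without control 24 h replicate 1. The cytokine medians were 5.35, 4.29 and 2.44. Ifih1 had log2 effects of 4.86, 3.61 and 2.54, and both differences passed (adjusted p = 1.73e-04 and 0.00511 by edgeR), the one from 72 h not without control 72 h replicate 1 (0.0673). Cxcl1 had 6.25, 3.52 and 3.44, of which the difference from 8 h passed (-2.73, adjusted p = 0.00130 by edgeR, and -4.05 without control 8 h replicate 1). Csf1 changed sign, at 3.57, 2.00 and -0.93, with both differences past the test (adjusted p = 5.50e-08 and 3.41e-13 by edgeR).

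Many MHC class II and glycolysis genes had a higher effect at 24 h than at 8 h, with 1 gene of each list lower, and many glycolysis genes a lower effect than at 72 h. The effect on MHC class II genes was higher at 24 h than at 8 h in 9 of 14 and lower than at 72 h in 5, with medians of 0.35, 1.47 and 2.12. The count against 72 h was 3 to 5 with 1 library left out in turn and 1 without the rRNA-rich libraries. Glycolysis genes were higher at 24 h than at 8 h in 9 of 20 and lower than at 72 h in 13, with medians of -0.13, 0.86 and 1.60. Without the rRNA-rich libraries the count against 72 h was 5. H2-Ab1 had log2 effects of 0.77, 2.29 and 3.20, and the difference from 8 h passed (adjusted p = 7.12e-05 by edgeR). Of the interferon-inducible GTPases, 4 of 16 had a higher effect at 24 h than at 8 h.

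Where sterol and cell cycle genes differed between 24 h and 72 h, the effect at 24 h was higher, except in 1 cell cycle gene. Sterol genes had a higher effect at 24 h than at 72 h in 9 of 25 cases, with medians of -0.52, -0.37 and -1.32, and cell cycle genes in 15 of 31, with medians of -0.25, -0.21 and -0.78. Mesothelial and fibroblast markers had medians of -0.25, -1.36 and -3.44 and a higher effect at 24 h than at 72 h in 8 of 15, and their part in these differences was not tested. Mrc1 did not pass at 8 h (log2 -0.26) and was -3.38 at 24 h and -3.37 at 72 h, with a difference of -3.13 from 8 h (adjusted p = 4.37e-09 by edgeR). Cxcr4 was lower at 8 and 24 h (-4.20 and -2.84) and stood at 0.40 at 72 h, a difference between 24 and 72 h of -3.24 (adjusted p = 1.30e-09 by edgeR).

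**Figure D4:**
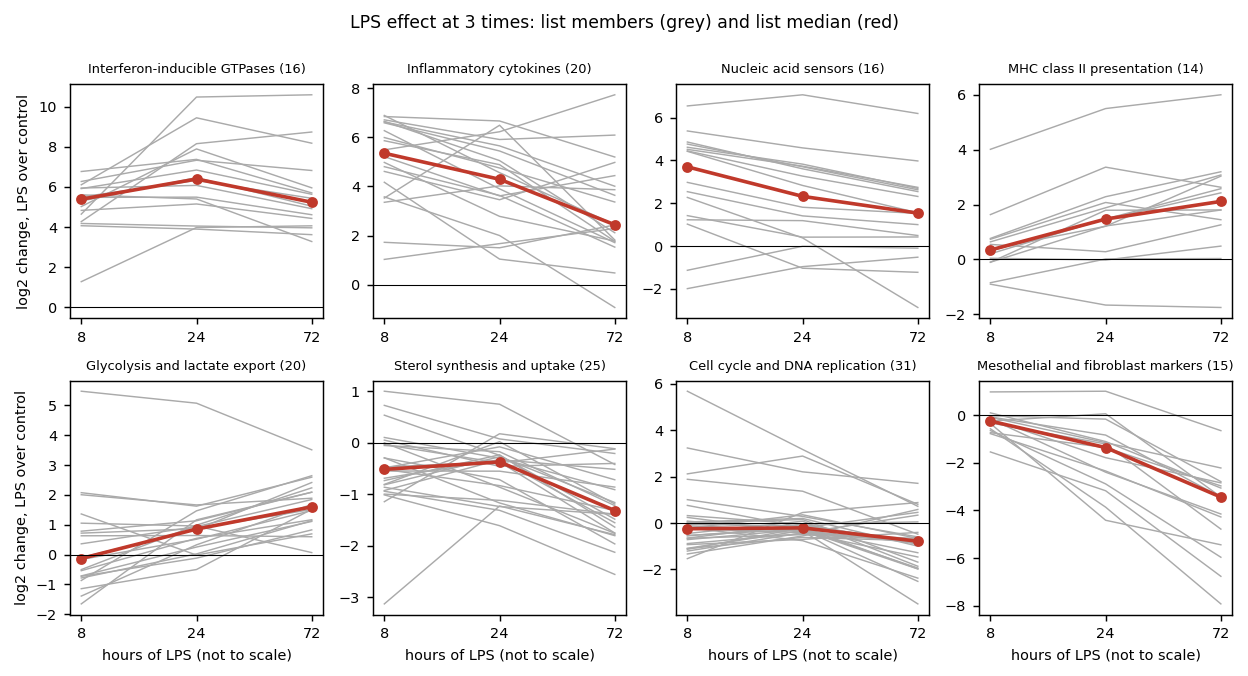
Fitted log2 change, LPS over control (y axis, a range of its own in each panel), at 8, 24 and 72 h (x axis, not to scale) for the tested members of 8 gene lists (grey lines, number in brackets) and the list median (red). At 24 h the medians of cytokines (4.29) and sensors (2.32) lie below those at 8 h, those of MHC class II (1.47) and glycolysis genes (0.86) lie above, and mesothelial and fibroblast markers (-1.36) lie between 8 and 72 h.

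The genes with the largest fitted differences between times are described next. For genes without reads in a group these values and their order depend on the prior count: Gbp11, Apol9b and Olfr56 had no read in the 24 h controls, and Gm7293 and Wnt6 none in the 72 h controls. Against 8 h, the 5 genes with the highest fitted difference were Gbp11, Siglece, Tgfbi, Tmeff1 and Ubd. The difference of Gbp11 did not pass without control 8 h replicate 2 (adjusted p = 0.144 by edgeR). Siglece, an inhibitory sialic acid receptor, had log2 effects of 2.00 at 8 h and 7.56 at 24 h, on 2 control counts at 24 h (ratio LPS over control 219, interval 60.4 to 1816). The effects at 8 and 24 h were -1.60 and 3.71 for Tgfbi, a matrix protein, -0.88 and 3.75 for Tmeff1, and 3.37 and 7.97 for the ubiquitin-like modifier Ubd. Tgfbi turned round, lower than control at 8 h and higher at 24 h, where it stood at 120.3, 146, 131 and 121 CPM with LPS, against 5.68, 13.1, 9.34 and 10.5 CPM in controls. The lowest fitted differences from 8 h were those of Gpm6a (-6.87 without LPS 24 h replicate 2, which held its single LPS count), Steap4, a metalloreductase (0.78 and -3.65), Mamdc2 (-2.10 and -6.24), the mesothelial marker Lrrn4 (-0.35 and -4.41) and the receptor Gprc5c (1.90 and -1.88).

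Against 72 h, the highest fitted differences were those of Olfr56, Lhx2, Apol9b, Tagln and Edn1. The difference of Apol9b was 1.02 without control 72 h replicate 3, and those of Olfr56 and Lhx2 did not pass without control 72 h replicate 3 or 4. Tagln, an actin-binding protein of smooth muscle and myofibroblasts, stood at 5.31, 5.96, 8.05 and 6.92 CPM with LPS, against 5.43, 6.21, 6.57 and 7.09 CPM in controls at 24 h, where the groups overlapped, and its log2 effect at 72 h was -5.40. Edn1, the peptide endothelin 1, stood at 16.5, 14.1, 23.3 and 16.5 CPM with LPS at 24 h, against 3.46, 0.321, 0.519 and 0.473 CPM in controls (log2 4.39, and 5.27 without control replicate 1), and had -0.78 at 72 h. The factor Lhx2 had 2 control counts at 24 h (ratio LPS over control 153, interval 42.2 to 1272). The lowest were those of Gm7293, Wnt6, Stfa3, Hsd11b1 and Orm1. With 1 of 15 libraries left out in turn, these differences did not pass in 8 cases for Gm7293, 6 for Wnt6, 4 for Hsd11b1, 1 for Stfa3 (without control 24 h replicate 2) and 1 for Orm1 (without control 72 h replicate 1). The difference of Stfa3 was -5.80, and -8.98 without control 72 h replicate 1, and that of Hsd11b1 was -4.90, and -8.01 without control 72 h replicate 3. Orm1, an acute-phase protein, stood at 8.95, 12.9, 19.7 and 11.2 CPM with LPS, against 2.22, 0.642, 1.04 and 0.662 CPM in controls at 24 h, a 13.7-fold rise, and its log2 effect was 8.64 at 72 h (adjusted p of the difference 0.0136 by edgeR). Stfa3, of a family of near-identical stefin genes, had 2.92 at 24 h and 8.73 at 72 h, and Gm7293 and Hsd11b1 did not pass at 24 h.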

How the data were processed

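RNA of cultured peritoneal macrophages was sequenced as polyadenylated RNA with the Diagenode CATS kit, per the labels. The authors deposited raw counts of reads per gene, made with cutadapt, Bowtie2, TopHat2 2.1.1 and HTSeq on build mm10, per the submitters' processing notes. No source used here gives the annotation release or strand setting, so reads of overlapping or antisense genes cannot be told apart, and reads of near-identical genes may be divided or lost. The 5 summary entries of the count table stayed out of library sizes and tests: ambiguous reads came to 3.41% to 4.45% of gene and ambiguous counts together in 6 of the 8 libraries and to 12.2% (LPS) and 13.6% (control) in replicate 3.

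From these counts a quasi-likelihood model was fitted with edgeR 4.0.16 (R 4.3.3) to all 44 libraries in 12 groups, with TMM scaling and filterByExpr at a minimum count of 10, which left 14537 of 46078 genes. The contrasts were LPS against control at 24 h and the difference of that effect from those at 8 h and 72 h, with Benjamini-Hochberg adjustment and a threshold of 0.05. Fitted log2 changes use a prior count of 0.125, so the 24 h change of a gene without reads in a group is given as a lower bound, computed as if that group held 3 counts in all, while differences between times are fitted values that depend on the prior count for such genes. The common biological coefficient of variation was 0.219, with 32 residual degrees of freedom. The script was tested on simulated data. Replicate libraries differed by more than sampling noise and none was merged.

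The fit was repeated with RLE scaling, without a filter, on only the groups compared, with replicate number as a blocking factor, with single libraries omitted, and by DESeq2 1.42.0. Leaving out the 7 libraries with over 3% of counts in Rn18s-rs5 was added after the data were seen. All 7 bore the replicate number 3. At 24 h and 72 h they included both LPS and control replicate 3. At 8 h control replicate 3 was among them (6.08%) and LPS replicate 3 was not (0.172%). Same-numbered LPS and control libraries deviated together at 24 h (r across genes 0.119, 0.364, 0.585 and 0.203 for replicates 1 to 4) and 8 h (0.119 to 0.508) but not in every pair at 72 h (0.24, 0.184 and -0.0475). Differently numbered pairs had r of -0.386 to 0.117 at 24 h, -0.496 to 0.394 at 8 h and -0.259 to 0.270 at 72 h. Some of those at 8 and 72 h thus exceeded same-numbered pairs. The use of the number as a block comes from these data, since the labels do not say that a number marks a shared batch.

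The gene lists (710 entries, 697 symbols, 696 found and 677 tested) and all choices were made with earlier results of these data known. Ear11 was not analysed here. Named genes are the 8 largest rises and 8 largest falls with a mean of at least 1 CPM and groups that do not overlap, from each list the 3 smallest p-values and the smallest in the other direction, a fixed set of 13 well-known genes, and the 5 highest and 5 lowest differences for each pair of times. Names late in a list's order could be left out, and some genes are not reported here. Csf1, Cxcl1, Ifih1, H2-Ab1, Mrc1 and Cxcr4 were chosen for the comparison of times after their values were seen, as were members named only to complete a count. Positions are from GENCODE M21 (GRCm38, the same assembly as mm10), which held 45143 of the identifiers, and promoter sequences from RefSeq on GRCm38.p6.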

Additional observations from a re-analysis of the deposited data

Results flagged for a closer look

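Among 312 groups of 4 libraries (156 named genes, LPS and control), 28 held a library far from the other 3 by Dixon's test. Normally distributed values would give about 1 in 20 groups, a rate that need not hold for CPM, least of all near 0. In Gpm6a and Scrn1 the other 3 LPS libraries had no reads. Of the 28 flagged libraries, 10 were LPS replicate 3 and 9 were control replicate 1.

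LPS replicate 3 was the lowest LPS library for Apol9a (4.14 CPM), Il1rn (955.1 CPM), Fpr2 (539.1 CPM), Fcgr1 (156.8 CPM), Slpi (108.1 CPM), Ctsc (751.5 CPM) and Cxcl10 (411.2 CPM), and the highest for Scrn1 (0.159 CPM), Slamf1 (45.6 CPM) and Arg1 (65.1 CPM). This library was rich in ribosomal RNA, and the part of that in these values was not tested.

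Control replicate 1 was the highest control for Nos2 (6.92 CPM), Hif1a (202.3 CPM), Il6 (15.3 CPM), Il12b (2.22 CPM), Il10 (1.48 CPM), Cxcl10 (15.1 CPM), Edn1 (3.46 CPM) and Ifit1 (24.9 CPM), and the lowest for Slpi (14.3 CPM).

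The other libraries far from their group were LPS replicate 2 for Gpm6a (0.0775 CPM, high), Fcgrt (4.26 CPM, low) and Adgre1 (1042 CPM, high), LPS replicate 1 for Ada (9.23 CPM, high) and Ccne1 (31.3 CPM, low), control replicate 2 for Prdx1 (1440.0 CPM, low) and Il4ra (44.2 CPM, high), control replicate 3 for Gbp7 (29.4 CPM, high) and control replicate 4 for Cxcl5 (8.13 CPM, high).

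The log2 effect of LPS differed between 24 h and 8 h, as 24 h minus 8 h and past the test of that difference by edgeR, by 5.83 in Gbp11, 5.56 in Siglece, 5.31 in Tgfbi, 4.63 in Tmeff1, 4.60 in Ubd and 1.52 in H2-Ab1. It differed by -5.33 in Gpm6a, -4.43 in Steap4, -4.14 in Mamdc2, -4.06 in Lrrn4, -3.78 in Gprc5c, -3.13 in Mrc1, -2.73 in Cxcl1, -1.57 in Csf1 and -1.25 in Ifih1.

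As 24 h minus 72 h, it differed by 6.00 in Olfr56, 5.83 in Lhx2, 5.59 in Apol9b, 5.46 in Tagln, 5.17 in Edn1, 2.93 in Csf1 and 1.06 in Ifih1. It differed by -7.40 in Gm7293, -5.88 in Wnt6, -5.80 in Stfa3, -4.90 in Hsd11b1, -4.87 in Orm1 and -3.24 in Cxcr4. The values of Gbp11, Olfr56, Apol9b, Gm7293 and Wnt6 are fitted against a control group without reads and depend on the prior count. Several others rest on single libraries, as given with the comparison of times.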

How the results depend on the processing

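At 24 h the genes called higher and lower numbered 2705 and 2809, against 2771 and 2797 with RLE scaling, 2896 and 2901 with DESeq2, 3050 and 3292 in the 2 groups alone, 2362 and 2620 without a filter, 2451 to 2689 and 2377 to 2613 with 1 library left out, 2525 and 2183 without the rRNA-rich libraries, and 2988 and 3152 with the replicate block. The differences between times moved more. Against 8 h, higher calls were 1928 in the 4 groups alone and lower calls 735 without the rRNA-rich libraries. Against 72 h, higher calls were 567 to 1155 and lower calls 467 to 789 with 1 library left out, and lower calls were 299 without the rRNA-rich libraries. The block changed the call of 3 named differences, those of Lhx2, Gm7293 and Wnt6 from 72 h (adjusted p = 0.0570, 0.0622 and 0.118 by edgeR), and of no other named result. Wnt6 also did not pass with DESeq2, without a filter or in the 4 groups alone. Of the named results under all alternatives, 2721 stayed on their side of the threshold, 53 lost the call, 5 gained it and none that was called turned round. Among results not called, Il10 changed sign without control replicate 1 (0.32) and Tagln without LPS replicate 3 (-0.022). The cause of these changes was not tested, although leaving out libraries also lowers the number of samples. The shallow replicate 1 libraries limit the values of genes near 1 CPM.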
